A study of Homo sapiens with 27 samples.

Results

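The 8 genes examined belong to the protein synthesis machinery, 6 of them coding for ribosomal proteins (RPL5, RPL11, RPLP0, RPS2, RPS25 and RPS6) and 2 for translation elongation factors (EEF1A1 and EEF2), and were followed by the 3′ ends of their messenger RNAs. The genes were chosen by name, and a 3′ end was assigned to a gene when its peak overlapped that gene's window on its strand. The windows held 63 of the 233020 merged peaks of the series, in positions read as the human build hg19. The series counted 3′ ends of poly(A)+ RNA in 27 libraries of 3 established lines of non-small cell lung cancer, H358, A549 and A549R, and its design text sets cisplatin-treated against mock cells and resistant against sensitive cells. It asks how transcripts that end at intronic polyadenylation sites change against those that end in last exons. H358 RNA came from total cells given cisplatin, oxaliplatin or vehicle (DMSO). A549 RNA came from heavy polysomes after cisplatin or DMSO. Cytosolic RNA came from A549R, read here as the cisplatin-resistant counterpart of A549, after cisplatin or DMSO, and from A549 after cisplatin or DMSO. Each of the 9 groups had 3 libraries, both platinum compounds were given at 100 µM, and the labels give no time of exposure. The labels do not say how A549R was derived, whether it is a single clone, or whether replicates came from separate cultures, so p-values measure the spread between these libraries, which may be technical.

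Ribosomal proteins are the structural parts of the ribosome, and the elongation factors drive each round of peptide growth on it. Their messenger RNAs are among the most abundant of a growing cell and belong largely to the TOP class, named after a terminal oligopyrimidine tract of C and T letters at the 5′ end of the RNA. TOP messenger RNAs are known to move between polysomes and lighter, untranslated particles with growth signals through mTOR and the binding protein LARP1. Heavy polysomes are messenger RNAs that carry many ribosomes, and a short coding sequence has room for fewer ribosomes than a long one. RPL5 and RPL11, proteins of the large subunit, also bind and inhibit MDM2 with the 5S ribosomal RNA when ribosome assembly is disturbed. RPLP0 is the base of the acidic stalk of the large subunit that recruits elongation factors. RPS2 and RPS25 are proteins of the small subunit, RPS25 being needed by several viral internal ribosome entry sites, and RPS6, also of the small subunit, is the classic substrate of the S6 kinases. EEF1A1 delivers aminoacyl-tRNA to the ribosome, and EEF2 catalyses translocation of the ribosome along the message.

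The starts of the genes are shown because the C and T tract is what places these messenger RNAs in the TOP class. RefSeq start windows of build GRCh38.p14 were matched for 6 of the 8 genes, with 7 windows in all because RPL11 had 2, and RPL5 and RPS2 are named only. Each line gives 30 bases from 5′ to 3′ on the strand of the gene, 15 before the annotated start and 15 from it, and capitals mark the longest run of C and T letters that begins with C within 5 bases of the start.
RPL11, chr1:23691764-23691793, plus strand: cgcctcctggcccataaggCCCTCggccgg
RPL11, chr1:23691791-23691820, plus strand: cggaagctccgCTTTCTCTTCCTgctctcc
RPLP0, chr12:120201097-120201126, minus strand: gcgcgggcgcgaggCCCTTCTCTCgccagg
RPS25, chr11:119018329-119018358, minus strand: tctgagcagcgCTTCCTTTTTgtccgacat
RPS6, chr9:19380222-19380251, minus strand: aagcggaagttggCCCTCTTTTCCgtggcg
EEF1A1, chr6:73521018-73521047, minus strand: gtcgccgtgaacgttCTTTTTCgcaacggg
EEF2, chr19:3985449-3985478, minus strand: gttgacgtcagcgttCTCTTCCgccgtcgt
The runs measured 5 and 12 letters in RPL11, 10 in RPLP0, 10 in RPS25, 11 in RPS6, 7 in EEF1A1 and 7 in EEF2. All 7 windows held a run of at least 5 letters, as did 21.1% of the 35116 start windows of the table on the strand of the gene, and 18.6% held one on the other strand. Such a run is a description of these letters and was not tested against any value below.

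The 8 genes together held 1305753 reads, of which 83.8% lay at 1 end per gene, called the main end, the peak with the most reads over the 27 libraries. The main end lay at chr1:93307207-93307489 on the plus strand for RPL5, chr1:24022737-24022922 on the plus strand for RPL11 and chr12:120634446-120634802 on the minus strand for RPLP0. For RPS2 it lay at chr16:2011865-2013261, for RPS25 at chr11:118886222-118886690 and for RPS6 at chr9:19376146-19376420, all on the minus strand. For EEF1A1 it lay at chr6:74227167-74227988 and for EEF2 at chr19:3975967-3976752, both on the minus strand. Whether these positions fall in an exon or a UTR is not stated, because no annotation of hg19 was used. The main end was the most downstream of its window in 6 genes. In RPS2 a single end of 15 reads lay further downstream, and EEF1A1 had 3 ends further downstream.

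The genes differed in how much of their RNA ended elsewhere. The main end took 99.8% of the reads of RPS2, 98.1% of RPLP0 and 91.2% of EEF2. It took 79.9% of RPL11, 79.6% of EEF1A1, 75.1% of RPS25, 73% of RPL5 and 70.9% of RPS6. The main end of RPS2 was a merged block of 1397 bases with up to 5 peaks in a library, so its share depends on the merging. The second end of RPS6, 301 bases upstream of the main one, held 61474 reads or 20.2% of the gene, and an end of EEF1A1 2433 bases upstream held 12.9% of its reads. The number of ends per window ran from 4 in RPS2 and RPS25 to 13 in EEF2. Of the 63 ends, 51 were listed in all 3 libraries of at least 1 group and 24, the 8 main ends and 16 others, in all 27 libraries. These genes have many near-identical processed pseudogenes, and how reads that match several places were counted is not given in the sources used here, so every level carries that uncertainty.

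**Figure D1:**
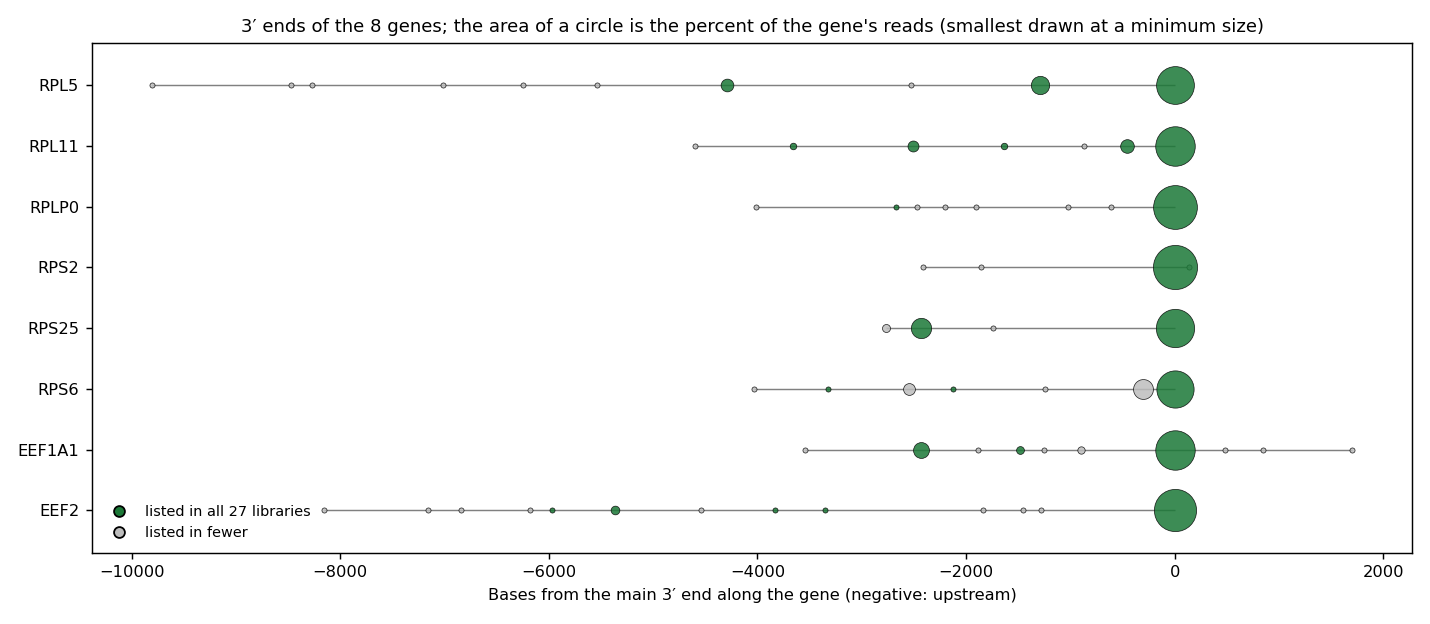
The 63 merged 3′ ends of the 8 genes (rows) by their distance in bases from the main end along the gene (x axis, negative upstream), with circle area proportional to the percent of the gene's reads down to a minimum drawn size. Green ends were listed in all 27 libraries and grey ends in fewer. RPS2 and RPLP0 have almost all reads at the main end, while RPL5, RPS25, RPS6 and EEF1A1 have sizeable upstream ends.

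The deposited lists differ in depth and in kind, which limits what can be read. Total counts per library ran from 3024814 to 11997535, and 42.8% to 87.9% of them lay in the 10283 peaks listed in all 27 libraries, which gave the scale and the tests. The lists were of 2 kinds, 16 long lists with 73.1% to 79.4% of their peak numbers and 11 short ones with 30.6% to 42.3%, and short lists came with oxaliplatin in H358 (3 libraries), with A549 cytosol under either treatment (6 libraries) and with replicate 3 of both polysome groups. An end missing from a list is therefore not a count of 0. The RPS6 end 301 bases upstream shows this, since it had 512 to 4563 reads in the 25 libraries that listed it and was missing from 2 short lists, those of replicate 3 of A549 cytosol and of polysomes after cisplatin. Another RPS6 end, 2550 bases upstream, had 468 to 2624 reads in 14 of 16 long lists and stood in 0 of 11 short ones.

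Levels are given as CPM, read counts scaled to a common total over the 10283 shared peaks after TMM scaling, and in bulk RNA fewer cells of a type and less RNA per cell cannot be told apart. The 8 main ends together took 0.799% to 1.32% of the shared reads of a library. The order of the 9 groups differed between genes. RPS2 had its highest levels in H358, with 3590, 5540 and 4330 CPM in cisplatin, 3310, 3280 and 3270 CPM in oxaliplatin and 3550, 3080 and 4300 CPM in DMSO. In A549R cytosol it had 1000, 1460 and 1300 CPM after cisplatin and 959, 994 and 994 CPM after DMSO, and in A549 cytosol 1040, 1190 and 1230 CPM after cisplatin and 989, 1160 and 1040 CPM after DMSO. Both platinum groups of H358 overlapped DMSO, the cisplatin libraries lay above the oxaliplatin ones, and no H358 library overlapped a cytosol library. RPLP0 and RPS25 had the same gap, RPLP0 with 2390 to 3830 CPM in H358 against 1520 to 2140 CPM in cytosol and RPS25 with 683 to 1530 CPM against 416 to 596 CPM.

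RPS6 was ordered the other way, with 889 to 1880 CPM over the 9 H358 libraries against 2400 to 2910 CPM over the 12 cytosol libraries. Between neighbouring groups in the order, RPL5 and RPL11 levels nearly always overlapped or touched. The exception was RPL11 between A549 cytosol DMSO, at 1180 to 1440 CPM, and polysomes after cisplatin, at 717 to 748 CPM. In RPL5, even so, every H358 library lay above every cytosol library, as in RPS2, RPLP0 and RPS25. The DMSO polysomes of RPL5, at 507 to 729 CPM, overlapped both sides of that gap. RPL11 had no such gap between H358 and cytosol. EEF1A1 and EEF2 were highest in polysomes, where EEF1A1 averaged 1180 CPM after cisplatin and 1340 CPM after DMSO and EEF2 averaged 1950 CPM after cisplatin and 2460 CPM after DMSO. Line and extract changed together between H358 and the cytosol groups and cannot be told apart there, and these levels are given as a description with no test.

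**Figure D2:**
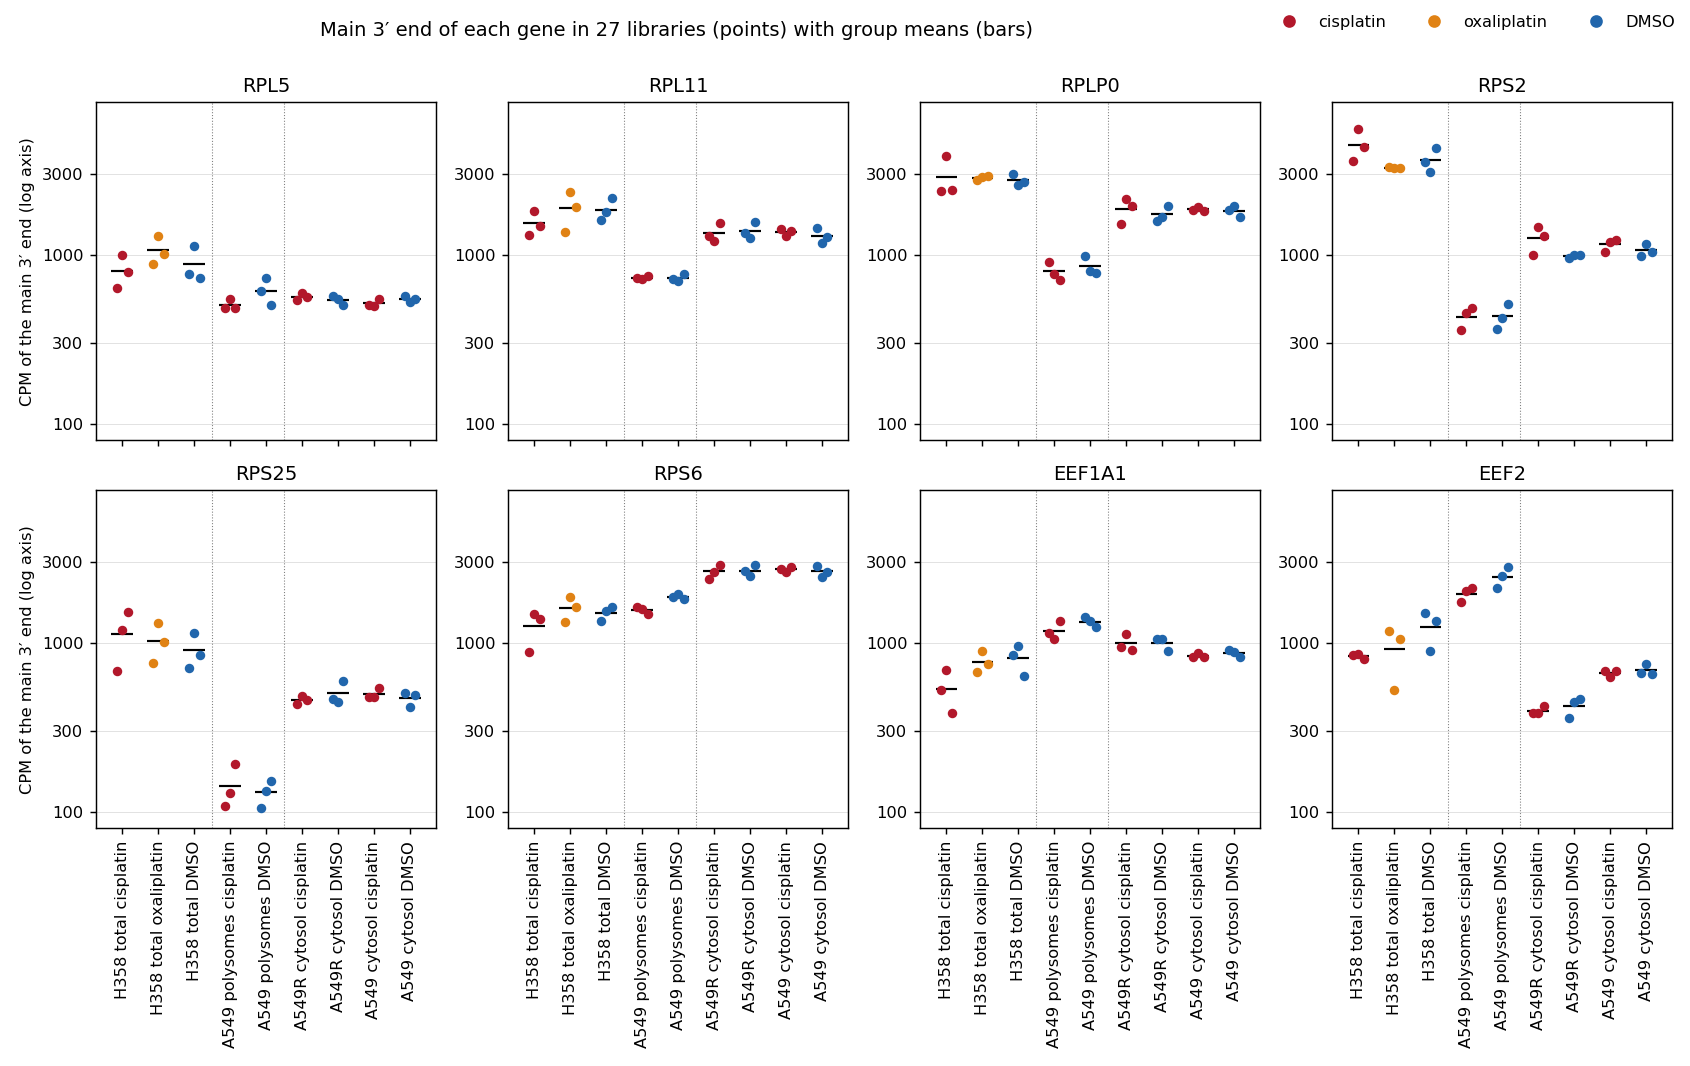
CPM of the main 3′ end of each gene (log axis) in each of the 27 libraries (points) by group, with group means as black bars. In the polysome groups RPS25, RPS2, RPLP0 and RPL11 are low and EEF2 is high, RPS2 is highest in H358, and EEF2 is lowest in A549R.

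The largest differences stood between heavy polysomes and cytosol of A549 cells, a comparison of messenger RNA loaded with many ribosomes with all cytosolic messenger RNA. Both elongation factors were higher in polysomes, EEF2 by 3.57-fold and EEF1A1 by 1.53-fold after DMSO, while 5 of the 6 ribosomal proteins were lower, RPS25 by 3.61-fold, RPS2 by 2.45-fold, RPLP0 by 2.13-fold, RPL11 by 1.78-fold and RPS6 by 1.41-fold. RPL5 was the only one of the 8 not called in this comparison. The 7 genes called, 2 higher and 5 lower, stand against 51.5% of all shared peaks called after DMSO (26.5% higher and 25% lower). Calls between these fractions were thus common among the shared peaks. The members had a median log2 difference of -0.66, against -0.02 over all 10283 peaks. The summed level of the 6 ribosomal protein ends was 4530 to 4740 CPM in polysomes and 7670 to 8210 CPM in cytosol after DMSO, and that of the elongation factor ends was 3510 to 4050 CPM in polysomes and 1480 to 1630 CPM in cytosol.

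EEF2, the translocation factor, had 2100, 2490 and 2810 CPM in DMSO polysomes and 667, 748 and 656 CPM in DMSO cytosol. Every polysome library was above every cytosol library. The log2 difference was 1.84 ± 0.15 (SE, edgeR quasi-likelihood test, adjusted p = 3.49e-06). EEF1A1, the aminoacyl-tRNA carrier, had 1420, 1350 and 1240 CPM in polysomes and 912, 887 and 823 CPM in cytosol. These groups did not overlap either, and the log2 difference of 0.61 ± 0.13 (SE) passed the same edgeR test (adjusted p = 0.00163).

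RPS25 was the ribosomal protein with the largest difference, at 105, 133 and 153 CPM in polysomes and 507, 416 and 491 CPM in cytosol, a log2 difference of -1.85 ± 0.21 (SE, edgeR, adjusted p = 2.13e-05). RPS2 had 363, 425 and 514 CPM in polysomes and 989, 1160 and 1040 CPM in cytosol, a log2 difference of -1.29 ± 0.16 (SE, edgeR, adjusted p = 4.36e-05). In both small-subunit genes the highest polysome library lay far below the lowest cytosol library. RPS6, the third of the small subunit, had 1880, 1950 and 1810 CPM in polysomes and 2850, 2460 and 2640 CPM in cytosol. It had the smallest difference of the 5, -0.5 ± 0.12 on the log2 scale (SE, edgeR, adjusted p = 0.00392), again without overlap.

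Among the large-subunit genes, the stalk protein RPLP0 had 983, 799 and 779 CPM in polysomes and 1850, 1940 and 1680 CPM in cytosol, a log2 difference of -1.09 ± 0.14 (SE, edgeR, adjusted p = 5.57e-05). RPL11 had 715, 701 and 771 CPM in polysomes and 1440, 1180 and 1270 CPM in cytosol, a log2 difference of -0.83 ± 0.12 (SE, edgeR, adjusted p = 0.000135). Neither gene had overlapping groups. RPL5, the partner of RPL11 in binding MDM2, ran from 507 to 729 CPM in polysomes (mean 614 ± 111) and from 529 to 567 CPM in cytosol (mean 548 ± 19.3, SD, n = 3 each). Its groups overlapped, and the log2 difference of 0.16 had a 95% interval from -0.14 to 0.47 (edgeR, adjusted p = 0.355).

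The same genes were called in the same directions after cisplatin, 2 higher and 5 lower, beside 55% of all shared peaks (28.5% higher and 26.4% lower). EEF2 had 1740, 2020 and 2110 CPM in cisplatin polysomes and 686, 628 and 682 CPM in cisplatin cytosol (log2 difference 1.56 ± 0.14, SE, edgeR, adjusted p = 6.31e-06). The log2 difference of EEF1A1 was 0.49 ± 0.13 (SE, edgeR, adjusted p = 0.00639). Those of the 5 lower ribosomal proteins ran from -0.8 for RPS6 to -1.8 for RPS25, with adjusted p from 2.25e-05 to 0.000138 in edgeR. All 7 called genes had groups that did not overlap, but how many of all shared peaks had none was not counted. RPL5 averaged 505 ± 34.7 CPM in polysomes and 518 ± 28.7 CPM in cytosol (SD, n = 3 each), with overlapping groups and a 95% interval of the log2 difference from -0.35 to 0.27. The polysome and cytosol libraries of cisplatin are other libraries than those of DMSO, so the 2 comparisons share no sample. They are not independent, because they share a fit and its estimate of the spread. Deviations of same-numbered cisplatin and DMSO libraries also correlated, at 0.32 to 0.51 in cytosol and 0.46 to 0.54 in polysomes.

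Polysomes and cytosol differed in more than these genes. Mitochondrial transcripts took 2.24% to 5.62% of the shared reads in polysome libraries and 11.7% to 19% in A549 cytosol libraries. With TMM factors computed without mitochondrial peaks, 7 genes were called in both treatments, 2 higher and 5 lower. Replicate 3 of each polysome group had a list of the same short kind as the cytosol libraries, while replicates 1 and 2 had long lists. The groups of the 7 called genes did not overlap, which fixes the side of replicate 3. The effect of the kind of list was not tested. The call of EEF1A1 depended on the scale and the peak set: with whole-list totals in place of TMM its log2 difference was 0.16 after DMSO and 0.18 after cisplatin, neither called, so that 1 gene was higher and 5 were lower, while the median of all peaks was -0.45 and -0.37. It was 0.47 and 0.44, also without a call, over every peak that averaged 5 or more reads, and RPS6 was not called after DMSO when all ends of its window were summed (-0.41, edgeR, adjusted p = 0.0903).

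The tests covered the 16 other ends of these genes that all 27 libraries listed, so the RPS6 end 301 bases upstream was left out. These ends moved with their main ends in most cases. After DMSO 5 were higher and 8 lower in polysomes, beside 26.5% and 25% of all shared peaks. After cisplatin 3 were higher and 8 lower, beside 28.5% and 26.4% of all shared peaks. All 8 tested other ends of RPL11, RPLP0, RPS25 and RPS6 were lower in polysomes under both treatments (edgeR, adjusted p under 0.05). Their log2 differences after DMSO ran from -1.99 in RPS25 to -1.02 in RPL11. Of the 4 tested other ends of EEF2, 3 were higher in polysomes under both treatments. The log2 differences of the 4 ends ran from 0.28 to 1.15 after DMSO and from 0.66 to 1.35 after cisplatin, less than those of the main end. Both tested other ends of EEF1A1 were higher after DMSO, each by 0.68 on the log2 scale, and neither was called after cisplatin. Neither tested other end of RPL5 was called.

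**Figure D3:**
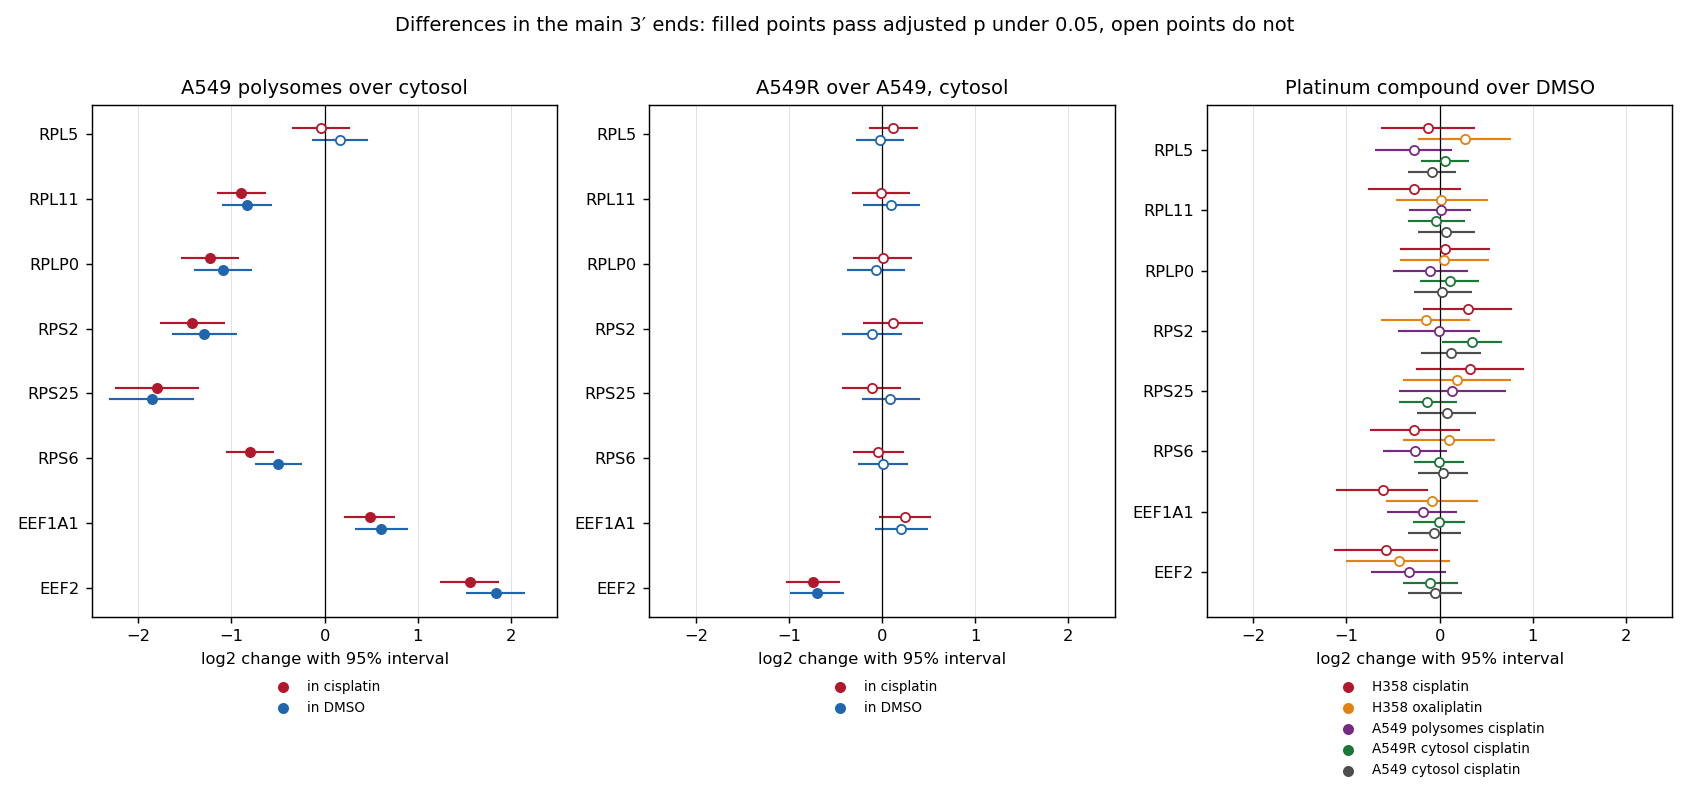
Log2 differences of the main ends (points) with 95% intervals (lines) for polysomes over cytosol, A549R over A549, and each platinum compound over DMSO; filled points passed an adjusted p under 0.05 in edgeR. In the left panel 2 genes lie right of 0 and 5 left of it in both treatments, in the middle panel EEF2 alone is filled, and in the right panel all points are open.

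In H358 total cells the main ends of the 8 genes did not pass the test after cisplatin: 0 of 8 were called by edgeR, beside 25.8% of all shared peaks (12.4% higher and 13.4% lower). DESeq2 also called 0. An unadjusted p under 0.05 in edgeR was found for 2 genes, EEF1A1 and EEF2, beside 38.2% of all shared peaks. EEF1A1 had 528, 688 and 386 CPM after cisplatin and 846, 963 and 641 CPM after DMSO. A single pair of libraries overlapped, and the log2 difference was -0.61 ± 0.24 (SE, edgeR, adjusted p = 0.0634). It passed the threshold without cisplatin replicate 2 (-0.84, edgeR, adjusted p = 0.0284) or without DMSO replicate 3 (-0.76, edgeR, adjusted p = 0.0357). EEF2 had 843, 856 and 808 CPM after cisplatin and 1510, 894 and 1340 CPM after DMSO, groups that did not overlap but whose log2 difference of -0.58 ± 0.27 (SE) missed the threshold as well (edgeR, adjusted p = 0.116). Of the 16 other ends tested over the 8 genes, 3 were called lower, beside 13.4% of all shared peaks. The EEF1A1 ends 1488 and 2433 bases upstream each fell by 1 on the log2 scale (edgeR, adjusted p = 0.0122 and 0.00365). Of the 4 tested other ends of EEF2, only that 5365 bases upstream was called, with a fall of 1.15 (edgeR, adjusted p = 0.0184).

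The 6 ribosomal proteins had log2 differences from -0.27 to 0.33 after cisplatin in H358. RPS25 was the most variable, with 683, 1190 and 1530 CPM after cisplatin and 710, 1150 and 849 CPM after DMSO. RPL11 had 1310, 1830 and 1490 CPM after cisplatin and 1600, 1790 and 2170 CPM after DMSO, and RPS6 had 889, 1480 and 1390 CPM after cisplatin and 1340, 1550 and 1630 CPM after DMSO. The 95% interval of each of the 6 included 0, the lowest limit being -0.77 for RPL11 and the highest 0.91 for RPS25. Those of the elongation factors, not adjusted for the number of peaks, lay below 0, from -1.11 to -0.12 for EEF1A1 and from -1.13 to -0.02 for EEF2. Mitochondrial transcripts took 24.1% to 27.9% of the shared reads after cisplatin and 11.2% to 11.6% after DMSO. With TMM factors computed without mitochondrial peaks, 0 of the 8 genes were called.

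This comparison depended on the scale. TMM factors were 0.607 to 0.782 in cisplatin libraries and 0.915 to 1 in DMSO libraries. With whole-list totals as the scale 6 of the 8 genes were called lower, with a median log2 difference of -0.83, while the median of all shared peaks was itself -0.6. Taking every peak that averaged 5 or more reads, unlisted ones set to 0, also gave 6 lower calls, with a median of -0.85 against -0.33 over all peaks, and RPLP0 then had -0.61 in place of 0.06. Relative to the median of all peaks, the members' median was -0.18 with TMM, -0.23 with whole-list totals and -0.52 with all peaks.

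Oxaliplatin, which carries diaminocyclohexane and oxalate where cisplatin carries ammine and chloride ligands, was given at the same dose. None of the 8 genes was called by edgeR against DMSO, beside 5.62% of all shared peaks, and DESeq2 called 0. An unadjusted p under 0.05 in edgeR was found for 0 genes, beside 22.8% of all shared peaks. The largest log2 difference was that of EEF2, -0.44 ± 0.27 (SE, edgeR, adjusted p = 0.333), with 1180, 529 and 1050 CPM after oxaliplatin and 1510, 894 and 1340 CPM after DMSO. The groups overlapped, each oxaliplatin library was below the DMSO library of the same number, and replicate 2 was the lowest of both groups. Deviations of same-numbered libraries correlated at 0.16 to 0.64 here, and with the replicate number as a block the difference of EEF2 was -0.47 ± 0.21 (SE, edgeR, adjusted p = 0.109), again not called. With unlisted peaks set to 0 and peaks averaging 5 or more reads, 6 genes were called lower, where the median of all peaks was itself -1.3. All oxaliplatin lists were short and all DMSO lists long, so the kind of list and the treatment cannot be told apart.

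Set against each other, cisplatin and oxaliplatin gave 0 called genes of 8 in edgeR, beside 18.4% of all shared peaks, and 0 in DESeq2. At an unadjusted p under 0.05 in edgeR stood 1 gene, EEF1A1, beside 32% of all shared peaks. EEF1A1 had 528, 688 and 386 CPM after cisplatin and 673, 891 and 750 CPM after oxaliplatin, a log2 difference of -0.53 with a 95% interval from -1.03 to -0.03 (edgeR, adjusted p = 0.128). RPS2 had 3590, 5540 and 4330 CPM after cisplatin and 3310, 3280 and 3270 CPM after oxaliplatin, without overlap, and a log2 difference of 0.45 with an interval from -0.03 to 0.93 (edgeR, adjusted p = 0.188). The 95% intervals are of each gene alone and not adjusted for the number of peaks. That of EEF1A1 lay below 0, and those of the other 7 genes included 0, with a lowest limit of -0.9 for RPL5 and a highest of 0.93 for RPS2, so these libraries do not show that the compounds act alike. With whole-list totals as the scale all 8 were called lower after cisplatin, where the median of all peaks was -1.02.

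In cytosol no main end of the 8 genes passed the test with cisplatin in either line. In A549 0 of 8 were called in edgeR, beside 7.02% of all shared peaks, and 0 by DESeq2. At an unadjusted p under 0.05 in edgeR stood 0 genes, beside 24% of all shared peaks. The 95% intervals spanned -0.34 to 0.44 on the log2 scale. RPL11, for example, had 1420, 1290 and 1380 CPM after cisplatin and 1440, 1180 and 1270 CPM after DMSO. RPS6 had 2740, 2640 and 2810 CPM after cisplatin and 2850, 2460 and 2640 CPM after DMSO. All 8 genes had overlapping groups.

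In A549R 0 of 8 were called, beside 4.62% of all shared peaks, with 0 by DESeq2. At an unadjusted p under 0.05 in edgeR stood 1 gene, RPS2, beside 22% of all shared peaks. RPS2 had 1000, 1460 and 1300 CPM after cisplatin and 959, 994 and 994 CPM after DMSO. Every cisplatin library was above every DMSO library, the lowest narrowly, and the log2 difference of 0.35 ± 0.15 (SE) missed the threshold (edgeR, adjusted p = 0.18). The intervals of the 8 genes spanned -0.44 to 0.67. The difference between the responses of A549R and A549 was called in 0 of 8 genes by edgeR, beside 0% of all shared peaks, with 0 by DESeq2. It had an unadjusted p under 0.05 in edgeR in 0 genes, beside 1.66% of all shared peaks, and its intervals spanned -0.65 to 0.69.

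EEF2 was the 1 gene of the 8 that differed between A549R and A549. After DMSO it had 361, 446 and 467 CPM in A549R and 667, 748 and 656 CPM in A549, and it averaged 425 ± 56.1 CPM in A549R and 690 ± 50.4 CPM in A549 (SD, n = 3 each). The groups did not overlap, and EEF2 was lower by 0.7 in A549R on the log2 scale (log2 difference -0.7 ± 0.14, SE, edgeR, adjusted p = 0.0145), or 1.63-fold lower. After cisplatin it had 382, 387 and 424 CPM in A549R and 686, 628 and 682 CPM in A549, a log2 difference of -0.74 ± 0.14 (SE, edgeR, adjusted p = 0.0132), again without overlap. One called gene of 8 stands beside 2.81% of all shared peaks after DMSO (1.5% lower) and 1.94% after cisplatin (0.866% lower).

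The EEF2 call was close to its limit. Leaving out 1 library at a time kept the log2 difference between -0.77 and -0.6 after DMSO and between -0.79 and -0.71 after cisplatin. The adjusted p rose to between 0.0513 and 0.0845 without A549R DMSO replicate 1, A549R DMSO replicate 2 or A549 DMSO replicate 2, and to between 0.0532 and 0.0699 without A549R cisplatin replicate 1, A549R cisplatin replicate 2 or A549 cisplatin replicate 1. With only these DMSO groups in the fit it was 0.0649 (edgeR). The 4 tested other ends of EEF2 had log2 differences from -1.01 to -0.61 after DMSO and from -1.29 to -0.15 after cisplatin. Of these, 1 passed the test, the end 5365 bases upstream after cisplatin (-1.19, edgeR, adjusted p = 0.0436). A549R lists were all long and A549 cytosol lists all short, so the kind of list and the line cannot be told apart.

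The other 7 genes had 95% intervals within -0.43 to 0.53 between A549R and A549 over both treatments. EEF1A1 had 948, 1130 and 913 CPM in A549R and 824, 873 and 825 CPM in A549 after cisplatin, without overlap, and a log2 difference of 0.25 ± 0.13 (SE, edgeR, adjusted p = 0.393). RPL5 averaged 541 ± 31.2 CPM in A549R and 548 ± 19.3 CPM in A549 after DMSO (SD, n = 3 each), with overlapping groups. With whole-list totals as the scale all 8 genes were called lower in A549R under both treatments, and the median of all shared peaks was then -0.66 after DMSO and -0.62 after cisplatin.

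In heavy polysomes cisplatin gave 0 called genes of 8 by edgeR, beside 0.924% of all shared peaks, with 0 by DESeq2. At an unadjusted p under 0.05 in edgeR stood 0 genes, beside 16.2% of all shared peaks. EEF2 had 1740, 2020 and 2110 CPM after cisplatin and 2100, 2490 and 2810 CPM after DMSO, each cisplatin library below the DMSO library of the same number, and a log2 difference of -0.33 ± 0.18 (SE, edgeR, adjusted p = 0.395). Deviations of same-numbered libraries from their group means correlated at 0.46 to 0.54 here, and with the replicate number as a block the difference was -0.33 ± 0.08 (SE, edgeR, adjusted p = 0.0486) and EEF2 was the 1 gene called lower, beside 9.19% of all shared peaks (4.57% lower). RPS6 had 1640, 1580 and 1480 CPM after cisplatin and 1880, 1950 and 1810 CPM after DMSO, without overlap, and a log2 difference of -0.26 ± 0.15 (SE, edgeR, adjusted p = 0.425). The 95% intervals of the 8 genes spanned -0.74 to 0.71, the widest being that of RPS25, which had 108, 129 and 191 CPM after cisplatin and 105, 133 and 153 CPM after DMSO. The difference between the response in polysomes and that in cytosol was called in 0 of 8 genes by edgeR, beside 0% of all shared peaks, with 0 by DESeq2. It had an unadjusted p under 0.05 in edgeR in 0 genes, beside 1.12% of all shared peaks.

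The share of a gene's reads outside its main end was counted over the ends that every library of a comparison listed. The study asks about intronic ends. Whether these other ends are intronic is not known here, so the shares do not measure intronic polyadenylation. The exact two-sided permutation test of 3 against 3 libraries cannot go below p = 0.1, so no share could pass. EEF2 had 8.03% ± 1.62 of its reads outside the main end in DMSO polysomes and 13.7% ± 2.49 in DMSO cytosol (SD, n = 3 each, exact permutation p = 0.1, adjusted 0.77 over 77 tests). After cisplatin it had 8.24% ± 0.959 in polysomes and 12.8% ± 1.37 in cytosol (SD, n = 3 each), and under both treatments the groups did not overlap. RPL11 had 13.6% ± 0.34 in DMSO polysomes and 16.6% ± 1.81 in DMSO cytosol, and RPS25 had 23.1% ± 3.86 in polysomes and 24.3% ± 3.81 in cytosol (SD, n = 3 each). The RPL11 groups did not overlap after DMSO and the RPS25 groups did. After cisplatin the RPL11 groups overlapped as well, at 13.1% ± 1.57 in polysomes and 16.1% ± 1.35 in cytosol (SD, n = 3 each, exact permutation p = 0.2).

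Between platinum compounds and DMSO the shares of most genes overlapped. In H358, EEF1A1 had 17.7% ± 2.25 of its reads outside the main end after oxaliplatin and 24.1% ± 1.95 after DMSO (SD, n = 3 each), without overlap and with an exact permutation p of 0.1, the smallest it can give. EEF2 did not overlap either, at 6.11% ± 0.231 after oxaliplatin and 7.39% ± 0.888 after DMSO. RPS2, with 1 other end of few reads, averaged 0.117% after cisplatin and 0.0814% after oxaliplatin, both without overlap with DMSO at 0.0403%. The largest peak within its merged main end held as little as 97.8% of that end's reads in a library, so these small shares depend on the merging. The oxaliplatin lists were all short and the DMSO lists all long. RPL5 had 30.1% ± 6.77 after cisplatin and 29.7% ± 5.79 after DMSO in H358 (SD, n = 3 each), with overlapping groups. The RPS6 end 301 bases upstream took 21.2% ± 1.9 of the reads at it and the main end after cisplatin, 18.4% ± 2.04 after oxaliplatin and 20.2% ± 2.54 after DMSO in H358 (SD, n = 3 each). In A549R cytosol it took 24.4% ± 3.64 after cisplatin and 24.4% ± 3.33 after DMSO, and in A549 DMSO cytosol 25.4% ± 1.84 (SD, n = 3 each). The RPS25 end 2436 bases upstream took 4.63% in 1 A549R DMSO library and 16.4% to 28.2% in the other libraries.

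**Figure D4:**
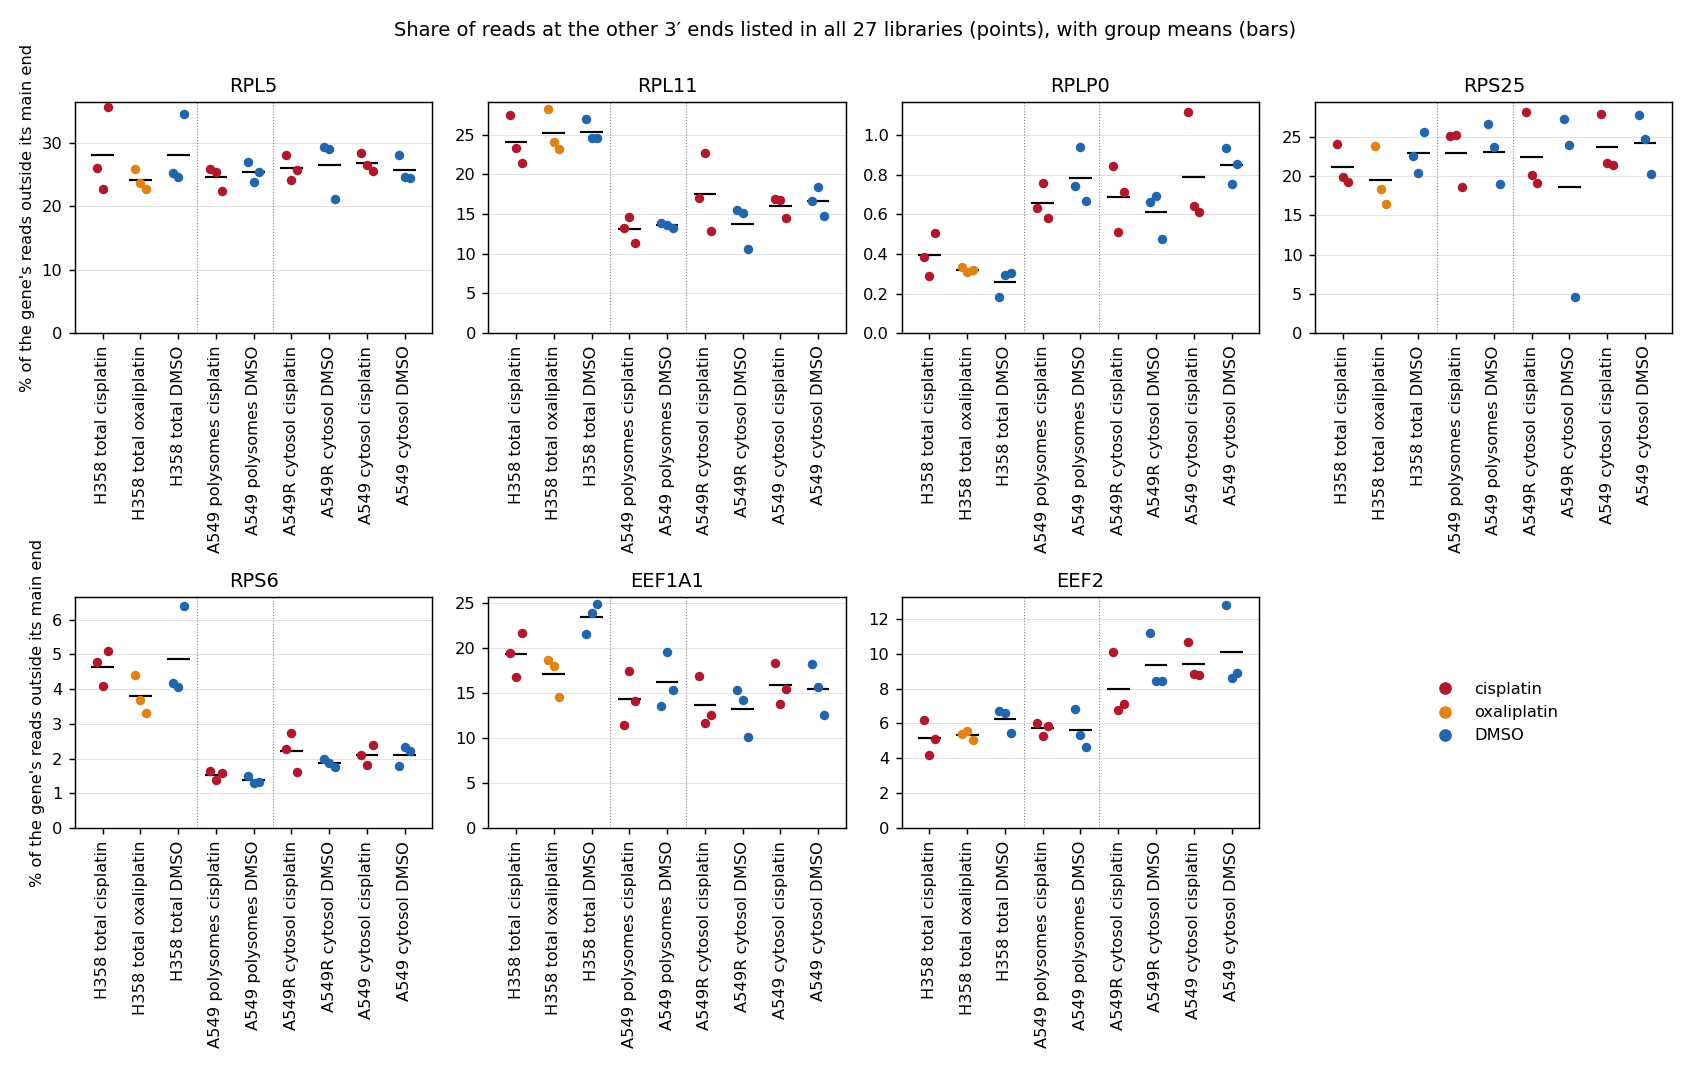
Percent of each gene's reads at the other ends listed in all 27 libraries (points) by group, with group means as black bars; RPS2 has no such end and is not drawn. The polysome points of EEF2 and RPL11 after DMSO lie below those of A549 cytosol, and 1 A549R DMSO library stands apart for RPS25 at 4.63%.

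EEF1A1 was the only gene with a widely listed end downstream of its main one, 1703 bases further, with 667 reads in the 22 libraries that listed it. It stood at 10.1 ± 1.15 CPM in polysomes after cisplatin and 13.3 ± 2.68 CPM after DMSO (SD, n = 3 each). In A549R cytosol it stood at 5.45 ± 1.02 CPM after cisplatin and 10.2 ± 5.4 CPM after DMSO, and in A549 cytosol at 5.19 ± 1.85 CPM after cisplatin and 5.79 ± 0.795 CPM after DMSO (SD, n = 3 each). No group of H358 listed it in all 3 libraries. These levels rest on few reads and were not tested.

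Among 10259 shared peaks outside the windows, the 3 whose 9 group means followed the mean log2 CPM of the 8 main ends most closely lay at chr11:61136216-61136687 on the plus strand (Pearson r = 0.992), chr1:145281944-145282107 on the plus strand (r = 0.992) and chr17:73163405-73164497 on the minus strand (r = 0.991). The points are 9 group means that share the scaling and the split of lines and extracts, so the values describe likeness over these groups and carry no test.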

How the data were processed

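Fragmented poly(A)+ RNA was primed with anchored oligo-dT, per the labels' protocols, so reads mark 3′ ends. Bowtie2 2.2.5, bedtools 2.17.0 and SAMtools 1.1 appear in the submitters' processing notes without roles, as does the mouse build mm9, which human chromosome names and positions contradict. How peaks were called and filtered is not stated by the labels or lists. The authors deposited 1 list per library with an unnormalised read count for each peak, at least 5.

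Peaks of the 27 lists were merged on an overlap of at least 1 base per strand (Python 3.11.15). The 10283 merged peaks in every list were scaled by TMM and tested with edgeR 4.0.16 (glmQLFit, glmQLFTest, R 4.3.3) in 4 fits: H358, cytosol, polysomes, and A549 polysomes with cytosol. P-values were adjusted by Benjamini-Hochberg over all 10283 peaks and called under 0.05, and DESeq2 1.42.0 was an alternative. All 8 genes were tested in every comparison, but values are given for only some of them in several comparisons. Shares were tested by exact permutation (scipy 1.17.1). The fits were tested on simulated data. Intervals come from the spread between libraries. No pair of replicates agreed within sampling noise (lowest chi-square per degree of freedom 4.27 over 27 pairs).

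The members and gene lists were chosen with earlier results of these data known. A list of other ribosomal protein genes got no values because no hg19 annotation was used. The labels state no pairing. Deviations of libraries with the same number correlated above 0.1 in every pair in 7 of 10 comparisons. H358 cisplatin against DMSO, cisplatin against oxaliplatin and A549R against A549 in cisplatin did not reach this. The main fits used groups only in all comparisons and ignored any pairing, and the replicate number entered as a block only as an alternative.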

Additional observations from a re-analysis of the deposited data

How the results depend on the processing

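Of 1800 values of single genes under the alternatives, 1727 kept their direction or stayed without a call, 13 lost and 43 gained a call and 17 reversed. Leaving out 1 library at a time, the count of called genes stayed at 7 for polysomes against cytosol under both treatments, ran from 0 to 1 for A549R against A549 in DMSO and in cisplatin, and from 0 to 1 for H358 cisplatin against DMSO, where EEF1A1 was the gene. The replicate block called EEF1A1 in H358 cisplatin against DMSO (1 gene, -0.63, edgeR, adjusted p = 0.0091) and against oxaliplatin (1 gene, -0.56, edgeR, adjusted p = 0.0228). With the block, 37.7% of all shared peaks were called against DMSO (19% lower) and 30.1% against oxaliplatin (15.3% lower). Deviations of same-numbered libraries correlated there at 0.02 to 0.44 and at -0.13 to 0.32, so whether the numbers pair these libraries is uncertain. The block also called EEF2 in polysomes after cisplatin (1 gene) and changed no other call of the members. With whole-list totals as the scale, called genes numbered 6 in H358 cisplatin and 1 in oxaliplatin against DMSO, 8 in cisplatin against oxaliplatin, and 8 and 8 in A549R against A549. The log2 differences that reversed there were RPLP0 -0.58 in H358 cisplatin against DMSO; RPLP0 -1.03, RPS2 -0.59 and RPS25 -0.88 in cisplatin against oxaliplatin; RPL11 -0.58, RPS25 -0.59, RPS6 -0.66 and EEF1A1 -0.46 in A549R against A549 in DMSO; and RPL5 -0.52, RPLP0 -0.64, RPS2 -0.53 and EEF1A1 -0.39 in cisplatin. Every peak averaging 5 or more reads, unlisted ones at 0, called 6, 6 and 1 genes in the H358 comparisons of cisplatin with DMSO, oxaliplatin with DMSO and cisplatin with oxaliplatin, with RPLP0 reversed at -0.61 in the first and RPL11 -0.71, RPLP0 -0.7 and RPS6 -0.64 in the second; without a minimum the counts were 6, 3 and 1, with RPLP0 -0.69 in the first. In H358 cisplatin against DMSO, 1 gene was called with peaks listed in every library of the fit, with peaks of at least 20 reads and with window totals. With only the 2 groups in the fit, 0 genes were called in A549R against A549 in DMSO (EEF2 adjusted p = 0.0649, edgeR). In polysomes against cytosol EEF1A1 was also not called after cisplatin with peaks listed in every library of the fit (0.32). The mean share outside the main end was 8.97% over shared ends and 16.1% over all ends. The cause was not tested, except that setting unlisted peaks to 0 lowers short lists by construction. At these depths the fewest reads at a main end were 298, for RPS25 in a polysome library.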
